A study of Sus scrofa with 12 samples.

Results

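Genes of pericellular proteolysis, 9 in number, were followed here in RNA-seq of porcine muscle satellite cells: the matrix metalloproteinases MMP1, MMP2, MMP3, MMP9 and MMP14, their tissue inhibitors TIMP1, TIMP2 and TIMP3, and PLAU, which encodes the urokinase plasminogen activator. They were taken by gene name from a table of 31908 genes, and 7 of the 9 names matched a row. The names MMP1 and TIMP2 matched none, and no row was analysed under either name. The row named MMP3 may count MMP1, as described below. Of the 7 matched genes, 6 passed the filter on low values (an FPKM, the reads scaled to gene length and library total, that reaches 1 in 3 or more of the 12 libraries). MMP9 did not pass and was not tested.

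Satellite cells are the stem cells of skeletal muscle. The 12 libraries form 4 groups of 3: control cells (WT in the titles, NC in the table) and cells of an arm named CBP, each collected at 0h, labelled proliferation, and at 60h, labelled differentiation. That arm is taken to be cells treated with SGC-CBP30, which blocks the acetyl-lysine binding bromodomain of CBP and its paralog p300, both histone acetyltransferases. The protocol gives that compound for 48 h in proliferation and 60 h in differentiation, but the same text stands on the control samples and the arms are listed under genotype, so this reading is not certain. How the controls were treated is not stated. Neither is whether the replicates were separate cultures or animals, so the p-values measure only the spread between these libraries, which may be technical. C3H, the cell name in the labels, is best known from mouse, but the labelled organism is pig and positions below are on the pig build Sscrofa11.1.

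Matrix metalloproteinases are zinc enzymes that cut collagens, laminins, fibronectin and other matrix proteins, and most are made as inactive proenzymes. MMP14 sits in the cell membrane, cuts fibrillar collagen and activates pro-MMP2, a gelatinase that cuts basement membrane collagen. TIMPs bind the active site and block it. Urokinase turns plasminogen into plasmin, which degrades matrix and can activate several pro-metalloproteinases. In muscle, these enzymes are known for remodelling the basement membrane around satellite cells during migration, fusion and regeneration. The data here are RNA levels and do not measure enzyme activity.

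Recovered depth was 16095335 to 19155240 reads per library. All 7 satellite cell and myoblast markers were above 1 FPKM in every group, but their summed level was not equal across groups. It ran from 1570 to 1587 FPKM in control cells at 0h, from 421 to 458 in the CBP arm at 0h, from 1756 to 1918 in control cells at 60h and from 1127 to 1208 in the CBP arm at 60h. DES, MYOG and CHRNA1 carry most of that sum. By gene, all 7 were lower in the CBP arm at 0h, while at 60h 4 were lower and 3 higher: PAX7 1.62-fold, CDH15 1.35-fold and MYF5 1.17-fold, the last not called under median-of-ratios scaling. Beside these and the marker counts below, 18.1% of all tested genes were called lower and 44.2% higher in the CBP arm at 0h. At 60h the shares were 27.0% and 44.7%. The sum of the 9 matched markers of fibroblasts and fibro-adipogenic cells, which also make these enzymes, was 203 in control cells at 0h and 147 to 156 in the CBP arm, then 328 to 336 and 221 to 243 at 60h. THY1 carries much of that sum, at 101 and 98.3 FPKM at 0h and 159 and 167 at 60h. It overlapped between the arms and did not pass at either time. Of the 8 tested genes of this list, 5 were lower and 2 higher in the CBP arm at 60h, where MMP2 was also higher. PDGFRA was 2.02-fold higher (10.3 and 20.8 FPKM, limma adjusted p = 1.47e-07) and LUM 1.19-fold higher (not called under median-of-ratios scaling), while COL15A1 was 5.48-fold, MFAP5 5.29-fold and DPT 21.8-fold lower. The 8 markers of smooth muscle cells and pericytes summed to 218 to 228 in control cells and 73.3 to 77.0 in the CBP arm at 0h. At 60h their sum was 202 to 209 and 99.8 to 106. All 7 tested were lower in the CBP arm at 0h, while at 60h 5 were lower, RGS5 was 1.85-fold higher and NOTCH3 did not pass. With time in control cells 5 rose and MCAM fell 2.44-fold, where 28.8% of all tested genes rose and 38.0% fell. The 8 endothelial markers summed to 5.38 to 6.03 FPKM in control cells and 4.74 to 4.85 in the CBP arm at 0h. At 60h they summed to 15.3 to 17.2 and 4.25 to 4.57, where ERG was 14.3 and 3.07 FPKM. The 10 macrophage and immune markers summed to 3.91 to 7.98 over all 12 libraries, with LYZ and CD3E at 0 throughout. The part of these marker differences in the results below was not tested. In bulk RNA, fewer cells of a type and less RNA per cell cannot be told apart.

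The basement membrane gelatinase MMP2 (ENSSSCG00000002829, chromosome 6, 30059247 to 30087031) overlapped between the arms at 0h and was far higher in the CBP arm at 60h. Its FPKM was 116, 121 and 122 in the control libraries at 0h and 125, 125 and 122 in the CBP arm. At 60h it was 223, 228 and 221 in control cells and 541, 620 and 550 in the CBP arm. The arms overlapped at 0h and were far apart at 60h. The mean rose 1.87-fold from 0h to 60h in control cells, from 120 ± 3.34 to 224 ± 3.28 (SD, n = 3), and 4.61-fold in the CBP arm, from 124 ± 1.44 to 570 ± 43.4. At 60h the CBP arm was 2.55-fold higher than control (log2 change 1.34, SE 0.04, limma adjusted p = 1.01e-10). The difference at 0h was 0.05 (SE 0.04, limma adjusted p = 0.363), and its direction turned to -0.09 under median-of-ratios scaling.

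MMP14 (ENSSSCG00000002039, chromosome 7, 76174502 to 76185931), the membrane-bound activator of pro-MMP2, was higher in the CBP arm at both times. At 0h its FPKM was 116, 114 and 112 in control cells and 143, 137 and 159 in the CBP arm. At 60h it was 191, 180 and 178 in control cells and 333, 351 and 329 in the CBP arm. At each time all 3 CBP libraries lay above all 3 controls. The CBP arm was 1.29-fold higher at 0h (log2 change 0.36, SE 0.05, limma adjusted p = 5.32e-05) and 1.85-fold higher at 60h (0.88, SE 0.05, adjusted p = 1.08e-08). Median-of-ratios scaling lowered the 0h difference to 0.22, still called. Over time MMP14 rose 1.61-fold in control cells and 2.31-fold in the CBP arm.

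The row named MMP3, the stromelysin-1 gene, carries the identifier ENSSSCG00000014985, which the pig reference table assigns to MMP1, the interstitial collagenase. Both genes lie on chromosome 9, MMP1 at 33411738 to 33420205 and MMP3 at 33446969 to 33453995, and which of them the row counts was not settled. It is called the MMP3 row here. At 0h it held 14, 16 and 13 reads in the control libraries (0.288, 0.343 and 0.268 FPKM) and 2, 4 and 8 reads in the CBP arm (0.0429, 0.0854 and 0.196 FPKM). At 60h its FPKM was 12.3, 12.6 and 10.9 in control cells and 17.7, 19.4 and 14.4 in the CBP arm. The transcript thus went from near absence to a moderate level in both arms, and the row passed the filter only through its 60h libraries. Group means rose 39.8-fold in control cells and 159-fold in the CBP arm, the latter from 14 reads in all. The CBP arm was 1.44-fold higher at 60h (log2 change 0.48, SE 0.09, limma adjusted p = 0.000619). At 0h all 3 CBP libraries lay below the controls, with 14 against 43 reads, but the difference did not pass (-0.23, SE 0.09, limma adjusted p = 0.0504) and was called in 11 of 24 settings, with values from -1.75 to -0.19.

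MMP9 (ENSSSCG00000007436, chromosome 17, 48179690 to 48186782), the other gelatinase, was below 0.45 FPKM in every library. At 0h it was 0.444, 0.189 and 0.415 FPKM in control cells and 0.285, 0.325 and 0.300 in the CBP arm. At 60h the values were 0.0523, 0.0963 and 0.0421 in control cells and 0.0312, 0.113 and 0.0203 in the CBP arm. The arms overlapped at both times, while each arm's 60h libraries lay below its 0h libraries. The reads fell from 103 to 18 in control cells and from 83 to 16 in the CBP arm. In a fit without the filter, the fall with time was called in control cells (log2 change -0.34, limma adjusted p = 0.0018) and in the CBP arm (-0.31, adjusted p = 0.00296), and neither arm difference was.

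**Figure D1:**
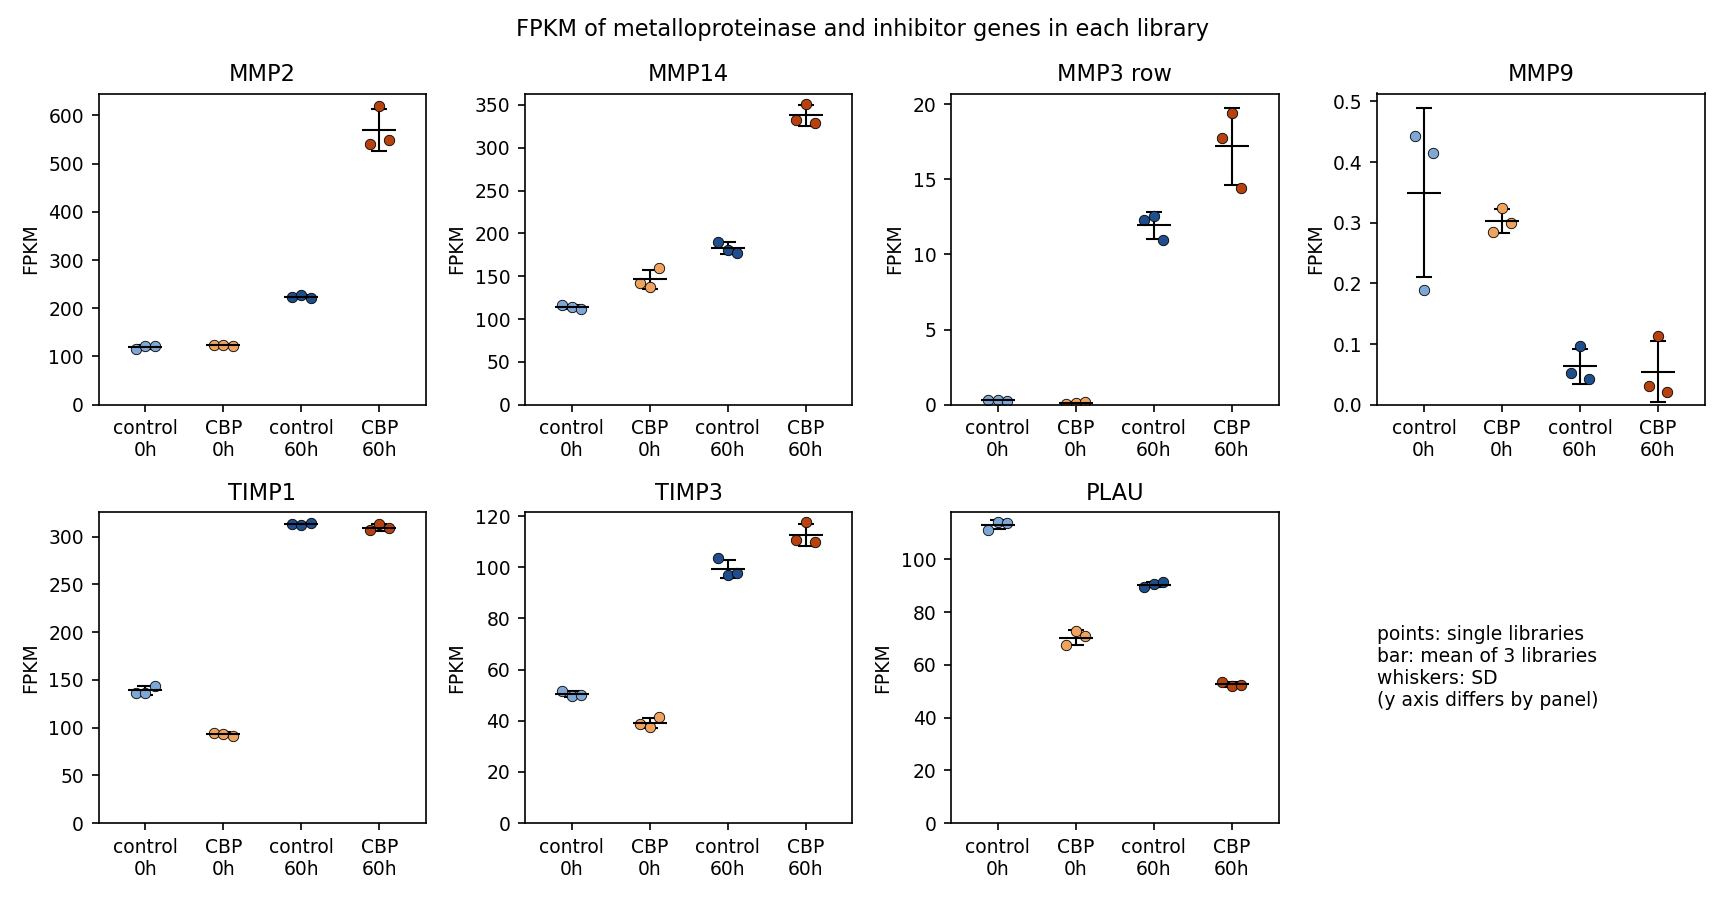
FPKM of the 7 matched genes in each library, by group, with the mean and SD of 3 libraries; the y axis starts at 0 and differs by panel. MMP2 stands at 541 to 620 in the CBP arm at 60h against 221 to 228 in control cells, TIMP1 overlaps between the arms at 60h, and PLAU is lower in the CBP arm at both times.

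TIMP1 (ENSSSCG00000012277, chromosome X, 42103251 to 42106289), a soluble inhibitor of most metalloproteinases, was lower in the CBP arm at 0h and near control at 60h. At 0h its FPKM was 136, 137 and 144 in control cells and 94.8, 93.8 and 91.6 in the CBP arm. At 60h it was 313, 312 and 315 in control cells and 307, 313 and 309 in the CBP arm. The arms were apart at 0h and overlapped at 60h. The CBP arm was 1.49-fold lower at 0h (log2 change -0.57, SE 0.03, limma adjusted p = 3.93e-09). At 60h the difference was -0.02 (SE 0.03, limma adjusted p = 0.55). It became a called difference of -0.15 under median-of-ratios scaling (adjusted p = 0.00175). TIMP1 rose with time 2.25-fold in control cells and 3.31-fold in the CBP arm.

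TIMP3 (ENSSSCG00000031866, chromosome 5, 12185816 to 12242599), the inhibitor that binds to the matrix and also blocks several ADAM proteases, went the same way as TIMP1 at 0h. Its FPKM was then 51.8, 49.7 and 49.9 in control cells and 38.6, 37.6 and 41.4 in the CBP arm. At 60h it was 104, 96.9 and 97.7 in control cells and 111, 118 and 110 in the CBP arm. No library of one arm overlapped the other at either time, and the order of the arms turned between them. The CBP arm was 1.29-fold lower at 0h (log2 change -0.36, SE 0.04, limma adjusted p = 1.27e-05) and 1.13-fold higher at 60h (0.18, SE 0.04, adjusted p = 0.00182). The 60h call was lost under median-of-ratios scaling (0.05, limma adjusted p = 0.316). With time TIMP3 rose 1.97-fold in control cells and 2.88-fold in the CBP arm.

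PLAU (ENSSSCG00000010312, chromosome 14, 76629313 to 76635173) was lower in the CBP arm at both times and fell with time in both arms. In control cells its FPKM was 111, 114 and 114 at 0h and 89.3, 90.7 and 91.2 at 60h. In the CBP arm it was 67.3, 72.8 and 70.9 at 0h and 53.7, 52.0 and 52.3 at 60h. The 4 groups did not overlap. The CBP arm was 1.61-fold lower at 0h (log2 change -0.68, SE 0.03, limma adjusted p = 2.71e-09) and 1.72-fold lower at 60h (-0.77, SE 0.03, adjusted p = 3.81e-10). PLAU was the one tested member that fell from 0h to 60h, 1.25-fold in control cells and 1.34-fold in the CBP arm.

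At 0h, 1 of the 6 tested members was higher in the CBP arm (MMP14) and 3 were lower (TIMP1, TIMP3 and PLAU), where 44.2% and 18.1% of all 11636 tested genes were called higher and lower, 62.3% in either direction. At 60h 4 were higher (MMP2, the MMP3 row, MMP14 and TIMP3) and 1 was lower (PLAU), against 44.7% and 27.0% of all genes, 71.6% in either direction. From 0h to 60h MMP2, MMP14, TIMP1 and TIMP3 rose and PLAU fell in each arm. The MMP3 row, which was tested because of its 60h level, had to differ with time and is not counted here. Over all genes, 28.8% rose and 38.0% fell in control cells (66.8% called), and 31.3% rose and 41.5% fell in the CBP arm (72.7% called). The members' counts are small and lie over backgrounds in which most genes are called. Median-of-ratios scaling moved the median change of all genes by 0.12 at 0h and 0.11 at 60h, and moved the share of higher genes among the called from 71.0% to 49.1% at 0h and from 62.4% to 47.8% at 60h. Differences between arms of that size therefore depend on the scaling.

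The change of the arm difference between the times was tested as an interaction, the log2 difference between arms at 60h minus that at 0h. It was called higher for MMP2, MMP14, TIMP1 and TIMP3, and 24.3% of all tested genes were called higher and 26.7% lower, 50.9% in either direction. The interaction was 1.30 for MMP2 (SE 0.06, limma adjusted p = 1.33e-08). For MMP14 it was 0.52 (SE 0.07, limma adjusted p = 5.59e-05). TIMP1 and TIMP3 gave like values of 0.55 (SE 0.04, limma adjusted p = 1.73e-07) and 0.54 (SE 0.06, adjusted p = 1.07e-05). For PLAU it was -0.09 (SE 0.04, limma adjusted p = 0.0862), so a change of its arm difference between the times was not shown. Without the first CBP library at 0h the PLAU value became -0.12 and was called (limma adjusted p = 0.0174). The MMP3 row gave 0.72 (SE 0.13), with 0.61 to 2.13 over the settings; since its 0h side rests on 43 and 14 reads, which the added 1 FPKM compresses, this is given as a value and not as support.

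**Figure D2:**
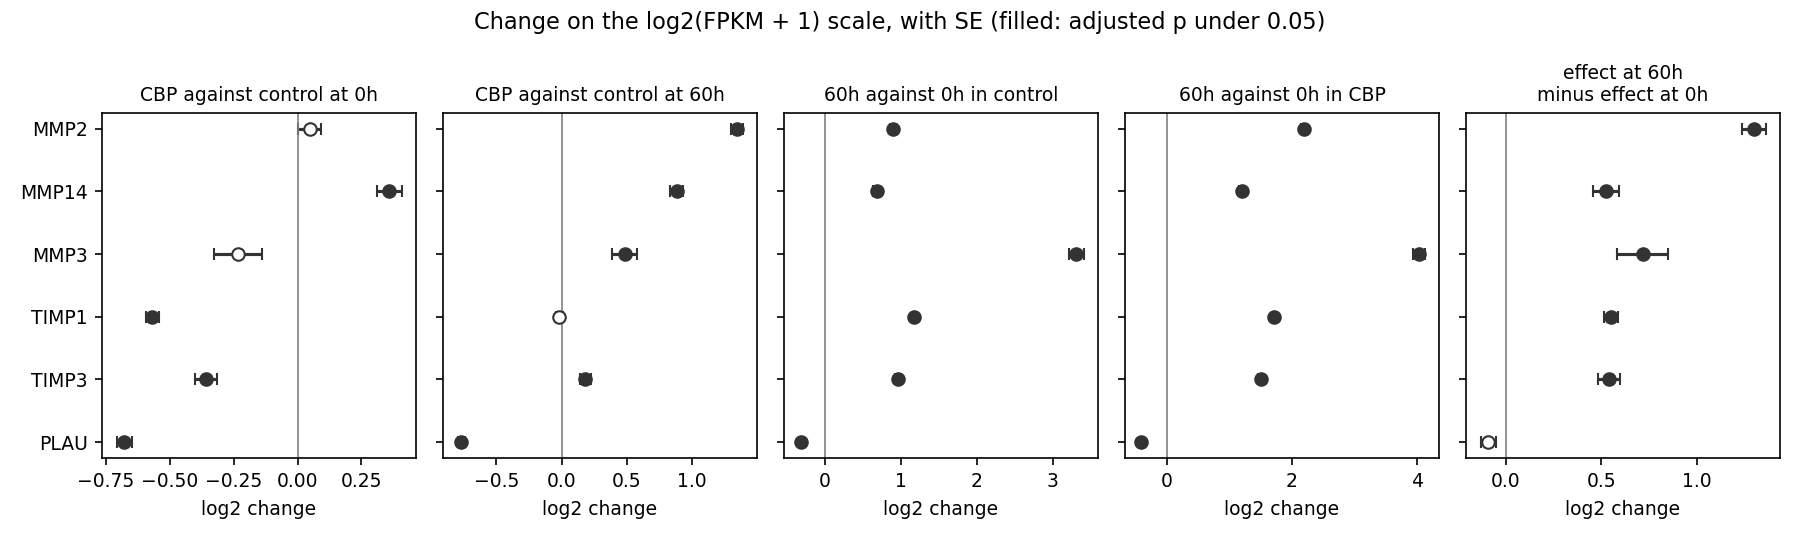
Log2 change with its SE for each tested member in each comparison; filled points were called by limma at an adjusted p under 0.05, and each panel has its own x axis. MMP2 moves from 0.05 at 0h to 1.34 at 60h, while PLAU is negative in the first 4 comparisons. The points labelled MMP3 are those of the MMP3 row, which was tested only because of its 60h level. Its calls with time and in the interaction are therefore not support.

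Levels of FPKM are per length and may be set side by side within a group. In control cells at 0h TIMP1 had the highest level, followed by MMP2, MMP14 and PLAU, whose neighbours in that order overlapped, and then by TIMP3, MMP9 and the MMP3 row. In the CBP arm at 0h the order was MMP14, MMP2, TIMP1, PLAU, TIMP3, MMP9 and the MMP3 row, with no overlap between neighbours. At 60h control cells again had TIMP1 first, then MMP2, MMP14, TIMP3 and PLAU. In the CBP arm at 60h both proteases stood above it, in the order MMP2, MMP14, TIMP1, TIMP3 and PLAU, again with no overlap. In both arms the MMP3 row and MMP9 came last at 60h.

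Ratios within a library do not depend on the scaling of libraries. The summed FPKM of MMP2 and MMP14 over that of TIMP1 and TIMP3 was 1.24, 1.26 and 1.21 in control cells at 0h and 2.00, 1.99 and 2.11 in the CBP arm. At 60h it was 0.993, 0.997 and 0.968 in control cells and 2.09, 2.26 and 2.10 in the CBP arm. The CBP libraries lay above the control libraries at both times. With time the control mean went from 1.23 ± 0.03 to 0.986 ± 0.02, with no overlap, while the CBP libraries of both times overlapped (2.04 ± 0.07 and 2.15 ± 0.09, SD, n = 3). The ratio of MMP2 to MMP14 was 1.05 ± 0.05 in control cells and 0.849 ± 0.07 in the CBP arm at 0h, and 1.23 ± 0.05 and 1.69 ± 0.07 at 60h. MMP2 thus stood below its activator in the CBP arm at 0h and above it at 60h. TIMP2, which with MMP14 takes part in activating pro-MMP2, is not in these ratios. TIMP1 makes up most of the inhibitor sum, at 313 FPKM against 99.4 for TIMP3 in control cells at 60h. The ratios are of RNA levels and do not show how far an inhibitor blocks a given protease.

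**Figure D3:**
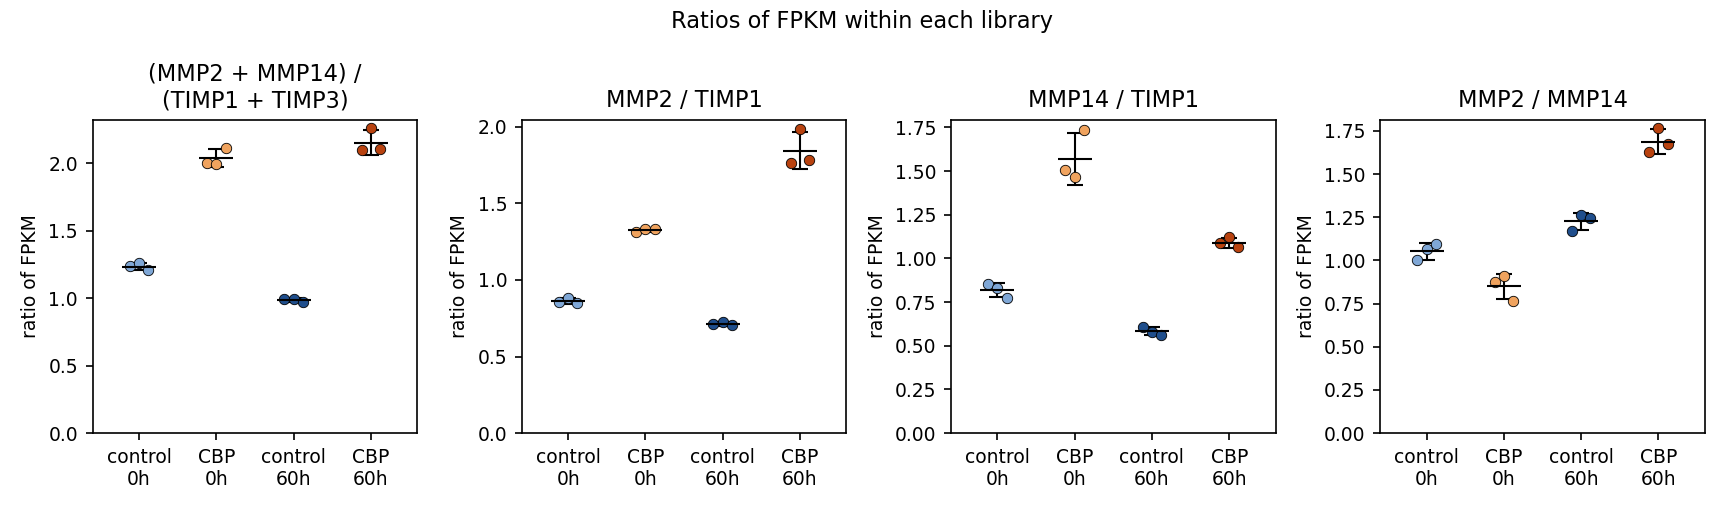
Ratios of FPKM within each library, by group, with the mean and SD of 3 libraries. The summed RNA level of MMP2 and MMP14 over that of TIMP1 and TIMP3 is 1.99 to 2.26 in the 6 libraries of the CBP arm. It is 0.968 to 1.26 in the 6 control libraries.

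The plasminogen system around PLAU was unequal in its changes. Of 6 tested genes of the list, 3 were higher and 1 lower in the CBP arm at 0h (median log2 change 0.07, against 0.12 for all genes) and 3 higher and 3 lower at 60h (-0.22, against 0.10). Median-of-ratios scaling gave 1 higher and 3 lower at 0h and the same counts at 60h. Without that scaling, 44.2% of all tested genes were called higher and 18.1% lower at 0h, and 44.7% and 27.0% at 60h. These shares also stand behind the counts of the lists below. The urokinase receptor PLAUR had an FPKM of 38.7, 35.7 and 35.7 in control cells and 31.3, 37.7 and 31.1 in the CBP arm at 0h. At 60h it was 60.6, 64.9 and 62.2 in control cells and 22.4, 24.4 and 25.5 in the CBP arm. The arms overlapped at 0h and were apart at 60h. PLAUR did not pass at 0h (36.7 ± 1.72 and 33.3 ± 3.79 FPKM), but median-of-ratios scaling called it lower in the CBP arm then. At 60h it was 2.60-fold lower in the CBP arm, at 62.6 ± 2.16 in control cells and 24.1 ± 1.58 in the CBP arm (SD, n = 3, limma adjusted p = 6.37e-09). It rose 1.71-fold with time in control cells and fell 1.38-fold in the CBP arm, with an interaction of -1.20 (SE 0.10, limma adjusted p = 1.12e-06).

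PLAT, the tissue-type activator, was higher in the CBP arm at 60h, where PLAU was lower. At 0h it was 17.7 ± 0.85 FPKM in control cells and 17.7 ± 0.47 in the CBP arm, and did not pass. Median-of-ratios scaling, however, called PLAT lower in the CBP arm at 0h. At 60h it was 32.9 ± 0.80 in control cells against 61.8 ± 1.10 in the CBP arm (SD, n = 3), a 1.88-fold difference (limma adjusted p = 7.15e-10). SERPINE2, a serpin that inhibits both activators, was 1.23-fold higher in the CBP arm at 0h and 1.61-fold lower at 60h. The plasminogen receptor PLGRKT was lower at both times, 1.32-fold and 1.89-fold. PLG, which encodes plasminogen, had 0 reads in all 12 libraries, so no plasminogen transcript was detectable at this depth.

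**Figure D4:**
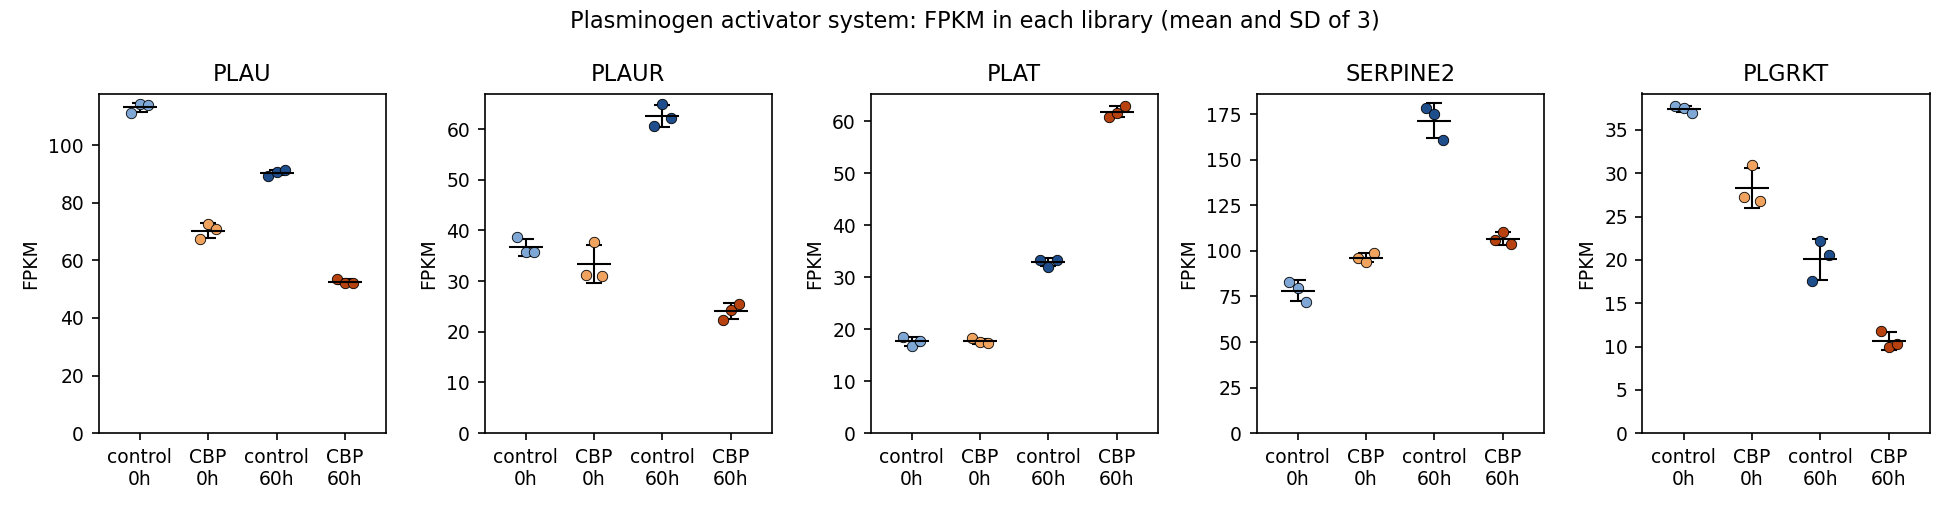
FPKM of PLAU and 4 genes of plasminogen activation in each library, by group, with the mean and SD of 3 libraries; the y axis starts at 0 and differs by panel. At 60h PLAUR is 60.6 to 64.9 in control cells and 22.4 to 25.5 in the CBP arm, and PLAT is the gene of these 5 that is higher in the CBP arm.

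Of 17 other metalloproteinases listed, 15 matched and 7 were tested. At 0h 2 were higher and 3 lower in the CBP arm, and at 60h 4 were higher and 3 lower. The median log2 changes were -0.04 and 0.21, against 0.12 and 0.10 for all genes. Median-of-ratios scaling gave 1 and 3 at 0h and 3 and 3 at 60h. MMP15, a membrane type enzyme like MMP14, was 1.56-fold lower in the CBP arm at 0h (19.1 and 12.3 FPKM) and 1.73-fold higher at 60h (28.2 and 48.8), with an interaction of 1.38 (SE 0.09, limma adjusted p = 1.14e-07). MMP16, also a membrane type enzyme, was 1.19 and 1.13 FPKM at 0h, where it did not pass, and 5.41 and 3.32 at 60h, 1.63-fold lower in the CBP arm. MMP23B was lower at both times, 2.26-fold at 0h (30.5 and 13.5 FPKM) and 4.58-fold at 60h (17.8 and 3.89). MMP25 was 2.06-fold higher at 0h and 1.70-fold higher at 60h, from levels of 1.01 to 4.48 FPKM. MMP8 and MMP12 had 1 read each over all 12 libraries, MMP20 and MMP27 had 0, and the collagenase MMP13 had 2 to 9 reads per group.

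Among other inhibitors and activators, 5 of 10 listed genes were tested. At 0h 2 were higher and 1 lower in the CBP arm, and at 60h 3 were higher and 1 lower. The median log2 changes were 0.09 and 0.23, against 0.12 and 0.10 for all genes. The proprotein convertase FURIN, which activates pro-MMP14, was 1.48-fold higher at 0h (19.5 and 28.8 FPKM) and 1.17-fold higher at 60h (32.6 and 38.3); the latter call was lost under median-of-ratios scaling. PCSK6, another convertase, did not pass at 0h and was 4.06-fold lower at 60h (20.6 and 5.07 FPKM). TFPI2, an inhibitor of plasmin and other serine proteases, was 1.32-fold and 1.57-fold higher. RECK, a membrane-anchored inhibitor of metalloproteinases, was 3.27 and 3.53 FPKM at 0h, where it did not pass, and 1.53-fold higher at 60h (1.98 and 3.02). TIMP4 was below 0.5 FPKM in each group mean and was not tested.

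The genes of matrix proteins that these enzymes cut were mostly lower in the CBP arm at 0h. Of 12 tested, 1 was higher and 10 lower in the CBP arm at 0h, and 5 were higher and 6 lower at 60h. Under median-of-ratios scaling these counts were 0 and 11, then 4 and 7. The median log2 changes were -0.61 and -0.16, against 0.12 and 0.10 for all genes. In control cells 12 of 12 rose from 0h to 60h (median 1.10, against -0.05 for all genes), and in the CBP arm 11 rose and 1, ELN, fell. The basement membrane collagen gene COL4A1, whose product MMP2 cuts, was 171 and 113 FPKM at 0h and 503 and 986 at 60h, which is 1.51-fold lower and then 1.96-fold higher in the CBP arm (log2 change at 60h 0.97, SE 0.03, limma adjusted p = 1.4e-10). COL4A2 was likewise 1.35-fold lower and 2.03-fold higher. The fibrillar collagen gene COL1A1 was lower at both times, 2.22-fold (653 and 294 FPKM) and 1.84-fold (2854 and 1551). ELN, which encodes elastin, was 18.3-fold lower at 0h (53.5 and 2.92 FPKM) and 67.7-fold lower at 60h (117 and 1.73).

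ADAM and ADAMTS proteases, several of which TIMP3 blocks, had 5 higher and 12 lower of 22 tested at 0h. At 60h 10 were higher and 9 lower. The median log2 changes were -0.41 and 0.02, against 0.12 and 0.10 for all genes. Under median-of-ratios scaling these counts were 3 and 14, then 7 and 11. ADAMTS6 was 3.51-fold lower at 0h and 2.59-fold lower at 60h, and ADAM19 was 2.11-fold and 2.21-fold lower. ADAM8 was 1.36-fold higher at 0h and 5.84-fold lower at 60h. ADAMTS7, which cuts cartilage oligomeric matrix protein, was 1.48-fold lower at 0h and 1.95-fold higher at 60h. Of 10 tested genes of other matrix-degrading proteases, 2 were higher and 6 lower at 0h, and 4 were higher and 4 lower at 60h. Under median-of-ratios scaling these counts were 1 and 6, then 3 and 5. The median log2 changes were -0.34 and -0.05, against 0.12 and 0.10 for all genes. The cell surface serine proteases DPP4 and FAP were lower at both times, DPP4 3.81-fold and 5.61-fold and FAP 1.97-fold and 1.99-fold.

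Of 15 tested transcription factors and cytokines known to induce metalloproteinase genes, 6 were higher and 3 lower in the CBP arm at 0h. At 60h 6 were higher and 6 lower. Over all genes, 44.2% were higher and 18.1% lower at 0h, and 44.7% and 27.0% at 60h. The median log2 changes were 0.08 and -0.07, against 0.12 and 0.10 for all genes. Under median-of-ratios scaling the counts of this list were 5 and 4, then 5 and 8. The AP-1 subunit gene FOSL1 was 35.1 and 55.8 FPKM at 0h and 22.4 and 7.47 at 60h, 1.59-fold higher and then lower in the CBP arm, by a log2 change of -1.48 (SE 0.09, limma adjusted p = 3.56e-08). FOS was below 1 FPKM in both arms at 0h and 7.61 and 17.1 FPKM at 60h, 2.24-fold higher in the CBP arm. JUNB rose with time from 10.9 to 120 FPKM in control cells and from 11.7 to 109 in the CBP arm, and did not pass between the arms (limma adjusted p = 0.607 at 0h and 0.338 at 60h). The cytokine gene IL6 was lower in the CBP arm at both times, at 2.86 and 0.546 FPKM at 0h and 7.91 and 0.440 at 60h.

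Likeness of pattern was measured as the root mean square difference between the log2(FPKM + 1) values of a pair of genes over the 12 libraries, each gene centred on its mean. The 12 libraries share the same cells and groups, so this is a description. The added 1 FPKM compresses the changes of low genes, so a low gene can lie near a member whose folds differ. Mean levels of KCNE4, FRMD4B, ST8SIA2 and NR4A3, named below, were under 1 FPKM in both arms at 0h. Among members, TIMP1 and TIMP3 were nearest (0.156), followed by MMP2 and MMP14 (0.367), and the MMP3 row and PLAU were farthest apart (2.08). Outside the members, TIMP1 was nearest to the cathepsin gene CTSB (0.102), KCNE4 (0.105) and FRMD4B (0.114). TIMP3 was nearest to ST8SIA2 (0.0722), SOX6 (0.0754) and TRIB1 (0.0756), and MMP14 to MAGEH1 (0.0733), MIDN (0.0761) and PNRC1 (0.0787). PLAU was nearest to LRRC66 (0.0574), ACE (0.0606) and IL1RAP (0.0725). Of these, ACE was low, at 1.35 FPKM in control cells and 0.336 in the CBP arm at 60h, against 90.4 and 52.6 for PLAU. For MMP2 the nearest were farther off, IGFBP4 (0.172), GRN (0.175) and NR4A3 (0.176). The MMP3 row was nearest to EGR2 (0.11), COL5A3 (0.23) and SFRP1 (0.317). EGR2, like the MMP3 row, was near absent at 0h, at 0.151 FPKM in control cells and 0.0585 in the CBP arm, and stood at 9.89 FPKM in control cells at 60h.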

How the data were processed

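The authors deposited 1 table of FPKM values for 12 libraries, with replicates not pooled. The submitters' processing notes name Trimmomatic, featureCounts and the build Sscrofa11.1. For aligner, annotation release, strand setting and tool versions, nothing was given in the sources used here. Therefore a gene and an antisense partner cannot be told apart. Whole reads were recovered from the steps between deposited FPKM values (all 22521 genes above 0, tolerance 0.001) and give depth and reads per gene. Log2(FPKM + 1) values of the 11636 genes with FPKM of 1 or more in at least 3 libraries entered a limma fit (version 3.58.1, R 4.3.3) of 4 group means with a trended spread. This scale understates changes of low genes. Tests were two-sided, adjusted by Benjamini-Hochberg within each of 5 comparisons, and called at an adjusted p under 0.05. Folds are ratios of mean FPKM. The members and lists were chosen with earlier results of these data known. Named genes are all members, up to 3 called genes per list and comparison with the largest log2 change, and the 3 genes nearest to each tested member in pattern; MMP8, MMP12, MMP13, MMP20, MMP27, PLG and TIMP4 stand outside this rule and were chosen after their values were seen. Gene positions are those of RefSeq on Sscrofa11.1. The replicate comparisons found no library deposited more than once. The scripts were tested on simulated data. A gene of the plasminogen list is not reported here and is left out of that list's counts.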

Additional observations from a re-analysis of the deposited data

Results flagged for a closer look

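For MMP2, MMP14, TIMP1 and TIMP3 the difference between the CBP arm and control at 60h differed from that at 0h by limma's interaction test over all 12 libraries. The value, the log2 difference at 60h minus that at 0h, was 1.30 for MMP2, 0.52 for MMP14, 0.55 for TIMP1 and 0.54 for TIMP3. The 2 differences behind each value are 0.05 and 1.34 for MMP2, 0.36 and 0.88 for MMP14, -0.57 and -0.02 for TIMP1, and -0.36 and 0.18 for TIMP3. Over the settings the value ran from 1.23 to 1.33 for MMP2, from 0.41 to 0.59 for MMP14, from 0.35 to 0.58 for TIMP1 and from 0.51 to 0.60 for TIMP3, called in all 23. Over all tested genes, 50.9% were called in this comparison. The row named MMP3 also passed (0.72, from -0.23 and 0.48), but it was tested only because of its 60h libraries and holds 43 and 14 reads per group at 0h. Its value ran from 0.61 to 2.13 over the settings, the highest with voom on recovered reads, so its size depends on how low values are treated.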

How the results depend on the processing

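Each of 30 member results was recomputed under up to 23 other settings. Of 684 recomputed values, 663 kept their direction and their side of the threshold, 17 passed it newly, 2 lost the call and 2 changed sign. The sign changes were MMP2 at 0h, -0.0861 under median-of-ratios scaling and -0.0865 with voom on recovered reads. The calls lost were those of TIMP3 at 60h under the same settings (0.049 and 0.0493). Members called lower at 60h became 2 under median-of-ratios scaling, quantile scaling and voom, since TIMP1 joined PLAU (-0.15 in each). Members higher at 0h became 2 under quantile scaling, where MMP2 passed (0.13). With no filter, members lower with time became 2 in each arm, since MMP9 was then tested. Members lower in the interaction became 1 under quantile scaling (PLAU, -0.16), and 0 to 1 over the fits that left out 1 library. All genes called higher at 0h numbered 5148, but 2987 under median-of-ratios scaling and 3097 with voom, and genes lower 2102 but 3190 with voom. Values of the MMP3 row moved with the setting, from -1.75 to -0.19 at 0h and from 0.61 to 2.13 in the interaction. The cause was not tested.

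Same-numbered libraries of different groups deviated together with correlations of -0.0935 to 0.082. In 14 of 36 cases a library was nearest to its own number. Pairing by number was thus not shown, though these values cannot exclude a shared effect that is small next to the spread. With the replicate number as a block, 5098 genes were higher and 2084 lower at 0h, and among the members only the MMP3 row at 0h changed its call (-0.23, limma adjusted p = 0.0497). Depth limits MMP9 and the MMP3 row at 0h, which rest on at most 103 and 43 reads per group.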
